A study of Mus musculus with 6 samples.

Results

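The genes described here encode the presynaptic vesicle release machinery, the proteins that store neurotransmitter in vesicles, dock and fuse those vesicles at the nerve terminal and retrieve their membrane afterwards. They were given as a list of 50 gene names, chosen with earlier results of these data known, and a member was kept where its mean was at least 10 counts. All 50 were found among the 55367 rows of the count table, all 50 passed that minimum, and all 50 were among the 16976 genes that passed the filter on low counts and were tested. They were grouped by the role of their protein into 7 roles: 8 proteins of the vesicle membrane or its surface, 2 vesicular glutamate transporters, 10 SNAREs and SNARE partners, 10 calcium sensors and their relatives, 3 Rab3 GTPases, 13 active zone proteins and 4 endocytosis proteins.

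RNA came from cultured mouse cortical neurons, 3 wild-type (WT) and 3 Fmr1-KO samples, all of the C57BL/6J strain. Fmr1-KO mice lack FMRP, the RNA-binding protein whose loss causes fragile X syndrome. The methods give the same protocol for both genotypes. Cortex was taken from pups at postnatal day 1 and dissociated. The cells were depleted of ACSA-2+ astrocytes and of myelin with antibody beads and cultured for 2 days in vitro. The depletion is described in the methods and not in the labels. The knockout was carried by all cells of the animal, and the labels name neither litter nor culture. According to the study, the samples of each genotype were derived independently. Whether they came from separate animals or cultures is not given in the sources used here, so a p-value measures the spread between these libraries. Nor is it given whether the genotypes were prepared or sequenced side by side. A difference between preparations therefore cannot be told apart from genotype.

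Release depends on a cycle. Vesicles are filled by transporters, held in a reserve by synapsins, brought to the active zone by Rab3 and its effectors, primed by Munc13 and RIM proteins, and fused by SNAREs when synaptotagmin binds calcium. Clathrin, dynamin and their partners then recover the vesicle membrane. Cortical neurons make most of these proteins from small gene families, and the balance between family members changes as neurons mature.

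Libraries held 30348556 to 35126207 counts. Fmr1 itself had 4113, 3710 and 3656 counts in WT and 1761, 1879 and 1972 counts in the knockout libraries, with a log2 fold change of −0.98 (SE 0.04, adjusted p = 2.25e-13), so the genotype labels and the counts went the same way, although reads still fell on the gene in the knockout. All 16 pan-neuronal marker genes were detected, the weakest with a mean of 658 counts. Defining markers of other cells were also present. The astrocyte marker Gfap, singled out after its values were seen, averaged 2473 CPM (counts scaled by TMM to a common library size), in spite of the depletion step. Differences are Fmr1-KO relative to WT throughout, on the log2 scale. They come from the quasi-likelihood test of edgeR, adjusted over all genes tested by the Benjamini-Hochberg method, and calls were made at an adjusted p under 0.05.

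Most release genes were lower in Fmr1-KO cultures. Of the 50, 42 fell (84.0%), 2 rose (4.0%) and 6 did not pass the test, whereas 21.9% of all genes tested were called lower and 20.7% were called higher. The median log2 fold change of the 50 genes was −0.45, with quartiles at −0.72 and −0.23, against 0.006 for all genes tested. Of the 44 release genes that averaged 10 CPM or more, 38 fell and 2 rose, beside 26.2% lower and 24.7% higher among all genes at that level. For 42 release genes, each Fmr1-KO library was below each WT library, an arrangement seen for 26.3% of genes tested. Changes were mostly moderate. A fall of at least 2-fold was called for 6 release genes, Slc17a7, Sv2b, Doc2b, Rab3b, Rimbp2 and Doc2a, and for 2.06% of genes tested. Tested against a minimum fold change of 1.2, 32 release genes were called lower, beside 7.89% of genes tested. In bulk samples such as these, fewer cells of a type and less RNA per cell cannot be told apart. Pan-neuronal markers were lower and markers of proliferating cells higher in the same Fmr1-KO libraries (median log2 fold changes −0.33 and 0.65), and their part in the result was not tested.

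**Figure D1:**
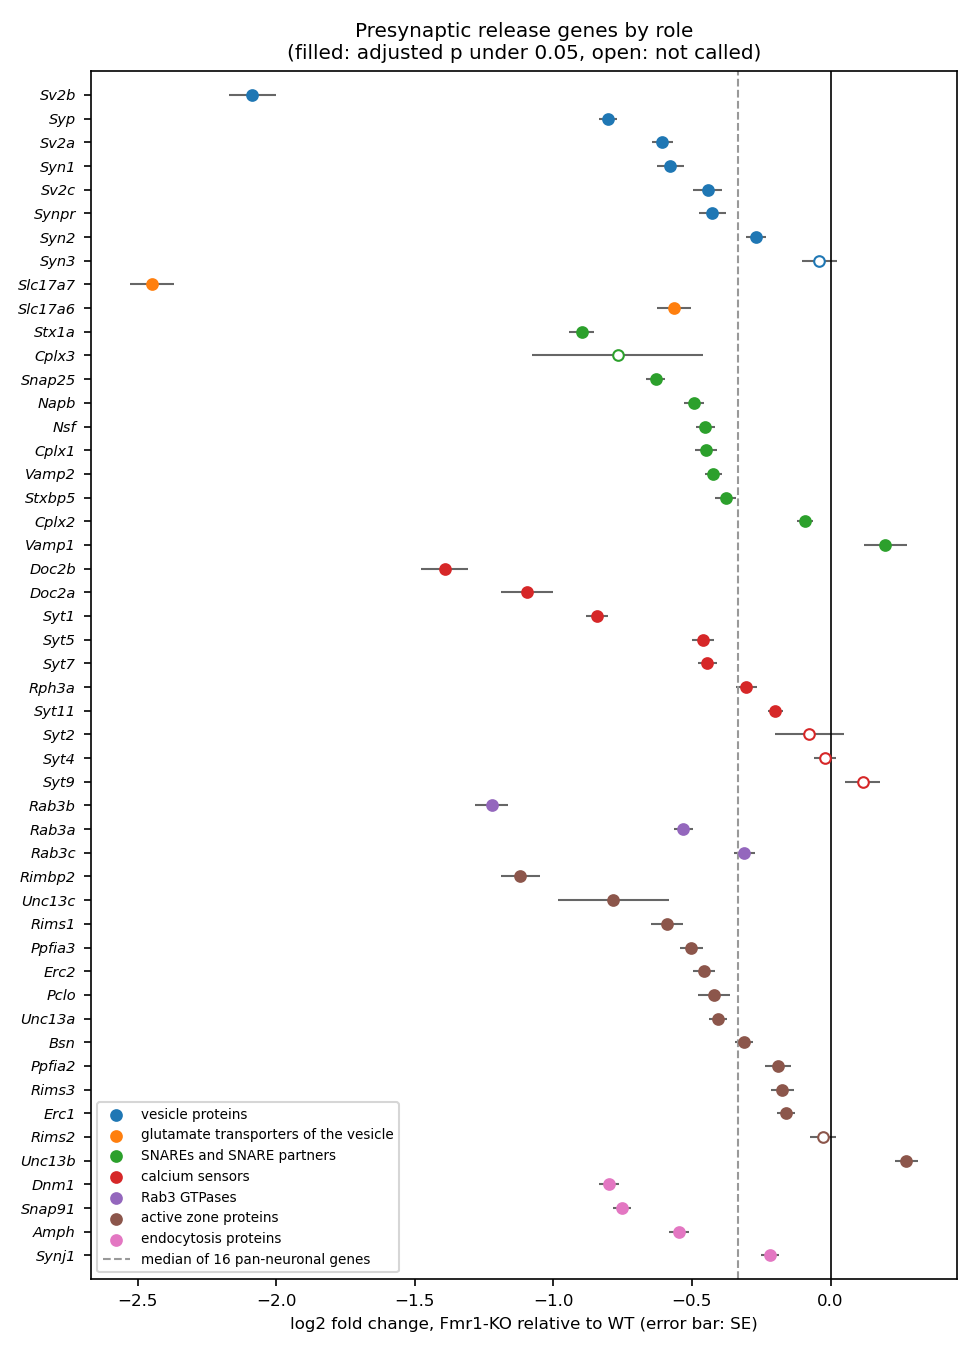
Log2 fold change of each release gene (horizontal axis, Fmr1-KO relative to WT, n = 3 per genotype), ordered by role, with error bars for SE. Filled points passed the test at an adjusted p under 0.05, open points did not, and the dashed line is the median of 16 pan-neuronal genes at −0.33. Of the 50 points, 47 lie below 0.

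As a share of each library, the release genes took 0.5092%, 0.5188% and 0.5117% of all counts in WT and 0.393%, 0.3919% and 0.4048% in Fmr1-KO, which is 0.513% ± 0.00501 and 0.397% ± 0.00717 (SD, n = 3). The libraries did not overlap. The Fmr1-KO libraries were also close to each other. The median release gene lay −0.46, −0.50 and −0.45 log2 units from the WT mean in Fmr1-KO libraries 1, 2 and 3, whereas the WT libraries lay within −0.019 and 0.019 of it.

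Among the vesicle proteins, 7 of 8 fell and 1 did not pass the test (median log2 fold change −0.51). Syp encodes synaptophysin, an abundant protein of the vesicle membrane (X:7638471-7653256, plus strand, GRCm38). It had 7016, 6935 and 6937 counts in WT and 3831, 3543 and 4218 in Fmr1-KO, or 207 ± 4.13 and 118 ± 2.78 CPM (SD, n = 3). Every Fmr1-KO library was far below every WT library, and the log2 fold change was −0.80 (SE 0.03, adjusted p = 4.43e-14). Its relative Synpr, synaptoporin, fell from 72.0 ± 2.54 to 53.5 ± 4.64 CPM. The SV2 glycoproteins of the vesicle membrane all fell. Sv2a, the most abundant of them, fell by 0.61 and Sv2c by 0.44 on the log2 scale. Sv2b, which was singled out after its values were seen because its mean lies just under 10 CPM, went from 577, 528 and 519 counts to 123, 109 and 138, so that Fmr1-KO kept 23.5% of the WT level (log2 fold change −2.09, SE 0.08, adjusted p = 5.19e-14).

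The synapsins coat vesicles and hold them in the reserve pool. Syn1 (X:20860511-20921004, minus strand, GRCm38) had 3838, 3944 and 3878 counts in WT and 2667, 2131 and 2780 in Fmr1-KO, a log2 fold change of −0.58. Syn2 fell by 0.27. Syn3, the synapsin most associated with immature neurons, did not pass the test, at 18.1 ± 1.12 CPM in WT and 17.6 ± 0.783 CPM in Fmr1-KO (log2 fold change −0.04, SE 0.06, adjusted p = 0.66). The Syn1 promoter is shown because it was the only one of 41 release gene promoters that held a full cyclic AMP response element, and also held the left arm of the RE1 element, a motif read by the neuronal repressor REST. It covers chrX:20920869-20921168 on the minus strand of GRCm38.p6, from RefSeq, and is written 5′ to 3′ along the gene, with both motifs in capitals. The RE1 arm begins 232 bases and the response element 159 bases before the start.
Syn1 promoter: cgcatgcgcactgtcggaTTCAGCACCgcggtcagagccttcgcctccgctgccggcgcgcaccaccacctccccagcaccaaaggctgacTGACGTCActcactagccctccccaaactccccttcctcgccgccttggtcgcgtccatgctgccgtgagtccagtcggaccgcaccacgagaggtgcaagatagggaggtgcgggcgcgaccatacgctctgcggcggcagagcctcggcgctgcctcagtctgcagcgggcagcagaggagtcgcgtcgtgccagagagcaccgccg

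Both vesicular glutamate transporters fell. Slc17a7 encodes VGLUT1, which loads glutamate into vesicles and becomes the main transporter of mature cortical neurons (7:45163949-45176142, plus strand, GRCm38). It had 693, 687 and 664 counts in WT and 121, 110 and 131 in Fmr1-KO. The genotypes were widely separated, at 20.2 ± 0.498 and 3.69 ± 0.0893 CPM (SD, n = 3), and the knockout kept 18.3% of the WT level. With a log2 fold change of −2.45 (SE 0.08, adjusted p = 1.69e-15), Slc17a7 changed most of the 50 release genes. Slc17a6 encodes VGLUT2, the transporter more used early in cortical development. It had 862, 863 and 818 counts in WT and 508, 545 and 611 in Fmr1-KO, a log2 fold change of −0.56 (SE 0.06, adjusted p = 1.68e-07). Per exon length, Slc17a7 made up 44.6% ± 0.241 of the VGLUT1 and VGLUT2 signal in WT and 17.9% ± 1.24 in Fmr1-KO. The VGLUT2 signal was 55.4% of the pair in WT and 82.1% in the knockout. The Slc17a7 promoter is shown as that of the gene with the largest change. It covers chr7:45163671-45163970 on the plus strand of GRCm38.p6, from RefSeq, with GC boxes (GGGCGG, or CCGCCC where it lies on the other strand) in capitals. They begin 70, 18 and 13 bases before the start, and the last pair shares 1 base.
Slc17a7 promoter: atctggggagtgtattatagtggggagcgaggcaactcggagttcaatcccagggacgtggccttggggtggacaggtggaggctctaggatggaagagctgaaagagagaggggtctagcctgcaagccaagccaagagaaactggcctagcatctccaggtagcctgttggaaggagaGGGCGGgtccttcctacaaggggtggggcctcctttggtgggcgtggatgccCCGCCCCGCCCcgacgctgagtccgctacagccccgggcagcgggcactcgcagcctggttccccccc

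The list of excitatory neuron markers held neither transporter. Of its 11 genes, 2 fell (18.2%) and 5 rose (45.5%), beside 21.9% and 20.7% of all genes tested. The median log2 fold change was 0.03. Summed levels were 930.9 to 948.5 CPM in WT and 943.5 to 971.2 CPM in Fmr1-KO, and they overlapped. Whether the share of excitatory neurons differed between genotypes was not tested.

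Of the 10 SNAREs and SNARE partners, 8 fell, 1 rose and 1 did not pass the test (median log2 fold change −0.45). Stx1a encodes syntaxin 1A, a SNARE of the plasma membrane (5:135023482-135051100, plus strand, GRCm38). It had 1879, 1884 and 1842 counts in WT and 955, 871 and 1088 in Fmr1-KO, or 55.4 ± 1.47 and 29.7 ± 1.44 CPM. The libraries did not overlap, and the log2 fold change was −0.90 (SE 0.05, adjusted p = 1.78e-12). The partner SNARE Snap25 fell by 0.63 on the log2 scale. Vamp2, the main vesicle SNARE of the forebrain, fell by 0.42 from 378 ± 6.53 to 282 ± 8.80 CPM. Its relative Vamp1, more used in the hindbrain and spinal cord, was called higher. Vamp1 had 431, 369 and 372 counts in WT and 394, 441 and 464 in Fmr1-KO, and 1 Fmr1-KO library lay within the WT range in CPM. Its rise of 0.20 (SE 0.08, adjusted p = 0.0465) was close to the threshold and was lost without WT library 2 or 3 or Fmr1-KO library 2 or 3, with adjusted p of 0.12, 0.134, 0.208 and 0.0998. Of the proteins that take SNARE complexes apart, Nsf fell by 0.45 and its adaptor Napb by 0.49. Stxbp5, tomosyn, a protein that holds back SNARE assembly, fell by 0.38.

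Complexins clamp and then promote fusion of primed vesicles. Cplx1 fell by 0.45 on the log2 scale, from 104 ± 2.63 to 76.4 ± 4.17 CPM. Cplx2, the more abundant complexin here, had 9088, 8634 and 8827 counts in WT and 7959, 7403 and 8737 in Fmr1-KO. Its fall of 0.09 (SE 0.03, adjusted p = 0.0131) was the smallest one called among the release genes. It lost its call when scaled by library totals alone (adjusted p = 0.075). Cplx3 had few counts. They were 57, 28 and 21 in WT and 20, 16 and 24 in Fmr1-KO, with a log2 fold change of −0.77 (SE 0.31, adjusted p = 0.0514). WT library 1 stood above the rest, and without it the log2 fold change was −0.27 (adjusted p = 0.519), whereas without WT library 3 the gene passed the test (−1.03, adjusted p = 0.00802).

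Among the calcium sensors and their relatives, 7 of 10 fell and 3 did not pass the test (median log2 fold change −0.37). Syt1 encodes synaptotagmin 1, the fast sensor of forebrain synapses (10:108497650-109010982, minus strand, GRCm38). It had 5616, 5627 and 5542 counts in WT and 2933, 2697 and 3454 in Fmr1-KO, or 166 ± 4.31 and 92.5 ± 5.94 CPM. All Fmr1-KO libraries were low, and the log2 fold change was −0.84 (SE 0.04, adjusted p = 6.02e-13). The other fast sensors did not pass the test. Syt2, the fast sensor of hindbrain synapses, was low in both genotypes, at 3.61 ± 0.382 and 3.42 ± 0.234 CPM (log2 fold change −0.08, SE 0.12, adjusted p = 0.66). Syt9 stood at 19.7 ± 1.79 and 21.4 ± 0.465 CPM (log2 fold change 0.12, SE 0.06, adjusted p = 0.159), although without WT library 1 it was called higher (0.19, adjusted p = 0.0285). Syt5 and Syt7, a sensor of slower release, fell by 0.46 and 0.44.

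Syt4 and Syt11 are related proteins that are not regarded as fast sensors. Syt4 had 6818, 7017 and 6350 counts in WT and 6224, 5888 and 7200 in Fmr1-KO, and the genotypes overlapped (log2 fold change −0.02, SE 0.04, adjusted p = 0.737). Syt11, the highest of the release genes per exon length, fell by 0.20 from 546 ± 5.56 to 476 ± 4.14 CPM. The high-affinity sensors Doc2a and Doc2b, both with means under 10 CPM and singled out after their values were seen, fell by 1.10 and 1.39 on the log2 scale. Doc2b had 431, 448 and 409 counts in WT and 163, 143 and 169 in Fmr1-KO, and Doc2a had 465, 453 and 435 counts in WT and 236, 160 and 217 in Fmr1-KO. Neither overlapped between genotypes. Rph3a, rabphilin, which binds Rab3 on vesicles, fell by 0.30.

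All 3 Rab3 GTPases, which mark vesicles and guide them to the active zone, fell (median log2 fold change −0.53). Rab3b (4:108879063-108943324, plus strand, GRCm38) had 1110, 1083 and 1167 counts in WT and 461, 411 and 523 in Fmr1-KO, or 33.2 ± 1.57 and 14.2 ± 0.804 CPM. The Fmr1-KO libraries were the lower ones without overlap, with a log2 fold change of −1.22 (SE 0.06, adjusted p = 9.41e-13). Rab3a, the predominant brain form, fell by 0.53 and Rab3c by 0.31.

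**Figure D2:**
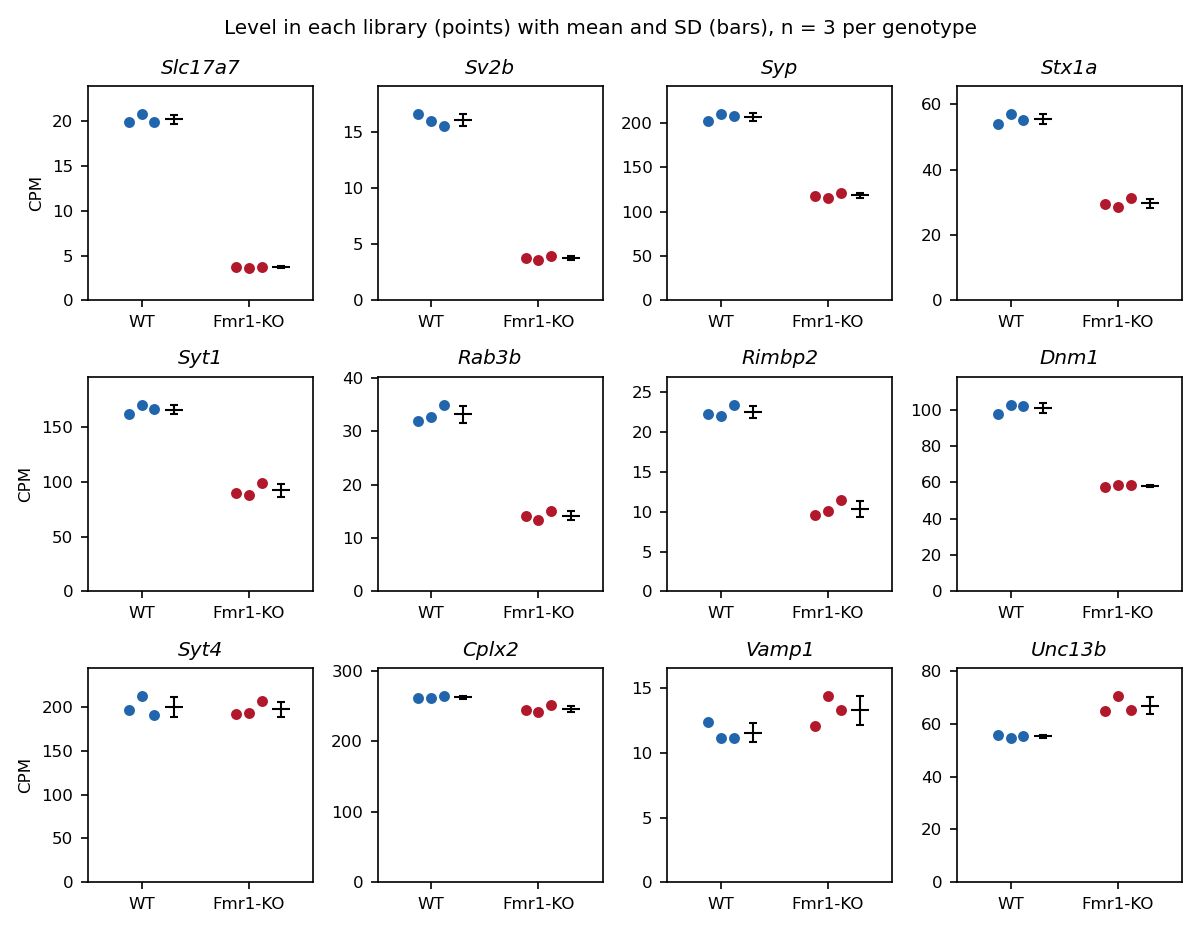
CPM (vertical axes, from 0) of 12 release genes in each WT and Fmr1-KO library (points), with mean and SD beside them (n = 3 per genotype). Slc17a7 and Sv2b sit at 3.69 and 3.77 CPM in Fmr1-KO against 20.2 and 16.04 in WT, Syt4 overlaps between genotypes, and Unc13b is higher in all Fmr1-KO libraries.

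Of the 13 active zone proteins, 11 fell, 1 rose and 1 did not pass the test (median log2 fold change −0.41). Rimbp2 encodes a RIM-binding protein that links calcium channels to the release site (5:128757791-128953486, minus strand, GRCm38). It had 775, 727 and 781 counts in WT and 312, 307 and 399 in Fmr1-KO, or 22.6 ± 0.744 and 10.4 ± 0.98 CPM. All Fmr1-KO libraries were lower (log2 fold change −1.12, SE 0.07, adjusted p = 4.81e-11). The RIM proteins dock vesicles and gather calcium channels. Rims1 fell by 0.59 and Rims3 by 0.17, and Rims2 did not pass the test at 57.1 ± 4.17 CPM in WT and 56.0 ± 1.17 CPM in Fmr1-KO (log2 fold change −0.03, SE 0.05, adjusted p = 0.665).

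The Munc13 priming factors went in opposite directions. Unc13a, Munc13-1, had 5248, 5266 and 5225 counts in WT and 3844, 3507 and 4150 in Fmr1-KO, a log2 fold change of −0.41 (SE 0.03, adjusted p = 2.27e-09). Unc13b, Munc13-2 (4:43058953-43264871, plus strand, GRCm38), had 1935, 1799 and 1852 counts in WT and 2102, 2157 and 2268 in Fmr1-KO, or 55.2 ± 0.682 and 66.8 ± 3.21 CPM. Each Fmr1-KO library was above each WT library, and Unc13b rose by 0.27 (SE 0.04, adjusted p = 1.15e-05), the only release gene to rise without overlap between genotypes. Against a minimum fold change of 1.2 it did not pass (adjusted p = 0.686). Unc13c was scarce, with 26 to 59 counts a library, and fell by 0.78. Both promoters are shown because the genes are close relatives called in opposite directions. They cover chr8:71671708-71672007 on the minus strand for Unc13a and chr4:43058703-43059002 on the plus strand for Unc13b in GRCm38.p6, from RefSeq. Capitals mark GC boxes (GGGCGG or CCGCCC) and, in Unc13a, the left arm of RE1 read on the opposite strand (GGTGCTGAA), which begins 23 bases after the start.
Unc13a promoter: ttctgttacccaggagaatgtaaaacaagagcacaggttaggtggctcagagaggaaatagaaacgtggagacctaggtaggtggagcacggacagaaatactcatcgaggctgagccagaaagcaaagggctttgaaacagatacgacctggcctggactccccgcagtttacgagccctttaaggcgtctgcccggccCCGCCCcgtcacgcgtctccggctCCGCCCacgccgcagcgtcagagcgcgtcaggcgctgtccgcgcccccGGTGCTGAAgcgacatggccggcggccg
Unc13b promoter: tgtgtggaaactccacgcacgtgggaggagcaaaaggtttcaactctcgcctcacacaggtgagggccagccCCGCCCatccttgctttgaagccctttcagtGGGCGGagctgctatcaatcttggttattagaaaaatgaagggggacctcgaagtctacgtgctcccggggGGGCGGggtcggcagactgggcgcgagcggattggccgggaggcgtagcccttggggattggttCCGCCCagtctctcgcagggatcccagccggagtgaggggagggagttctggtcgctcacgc

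The large active zone scaffolds also fell. Bsn, bassoon, fell by 0.31, and Pclo, piccolo, fell by 0.42, from 93.2 ± 10.8 to 69.6 ± 3.39 CPM. Of the ERC scaffolds, Erc2, which is largely confined to brain, fell by 0.46 and the broadly expressed Erc1 by 0.16. The liprins Ppfia2 and Ppfia3, which help to assemble the active zone, fell by 0.19 and 0.50.

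All 4 endocytosis proteins fell (median log2 fold change −0.65). Dnm1 encodes dynamin 1, the GTPase that cuts the vesicle neck (2:32308471-32353338, minus strand, GRCm38). It had 3404, 3397 and 3414 counts in WT and 1862, 1788 and 2035 in Fmr1-KO, or 101 ± 2.66 and 58.1 ± 0.686 CPM. The genotypes did not overlap, with a log2 fold change of −0.80 (SE 0.04, adjusted p = 2.99e-13). Snap91, the clathrin adaptor AP180, fell by 0.75 and Amph, amphiphysin, which brings dynamin to the vesicle neck, by 0.55. Synj1, the lipid phosphatase that helps to uncoat vesicles, fell by 0.22.

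Related genes could be compared within each library, where no scaling enters. For 12 pairs of relatives the log2 ratio of the first gene to the second was taken. For 11 of them the 3 Fmr1-KO libraries did not overlap the 3 WT libraries. The pairs were picked from members chosen with earlier results known, and other gene pairs were not counted. Among single genes tested, 26.3% had each Fmr1-KO library below each WT library. That share counts falls of single genes alone, whereas the pairs count shifts in either direction. It is therefore not a like measure for the pairs. With 3 against 3 libraries the exact permutation test, 2-sided, cannot give a p below 0.1, and these 11 pairs reached that value (0.109 after Benjamini-Hochberg adjustment over the 12 pairs), so no pair passed. The largest shift was in Slc17a7 over Slc17a6, from −0.31 ± 0.01 to −2.20 ± 0.12 log2 units, which is a 3.68-fold change of the ratio. Sv2a over Sv2b went from 3.69 ± 0.05 to 5.17 ± 0.07. Syt1 over Syt4 shifted by −0.83, Unc13a over Unc13b by −0.68, Rims1 over Rims2 by −0.56 and Vamp1 over Vamp2 by 0.62. Smaller shifts were found for Syp over Synpr (−0.37), Cplx1 over Cplx2 (−0.36), Syn1 over Syn2 (−0.31), Erc2 over Erc1 (−0.30) and Rab3a over Rab3c (−0.22). Bsn over Pclo overlapped between genotypes, with a difference of 0.10 (exact permutation p = 0.6).

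**Figure D3:**
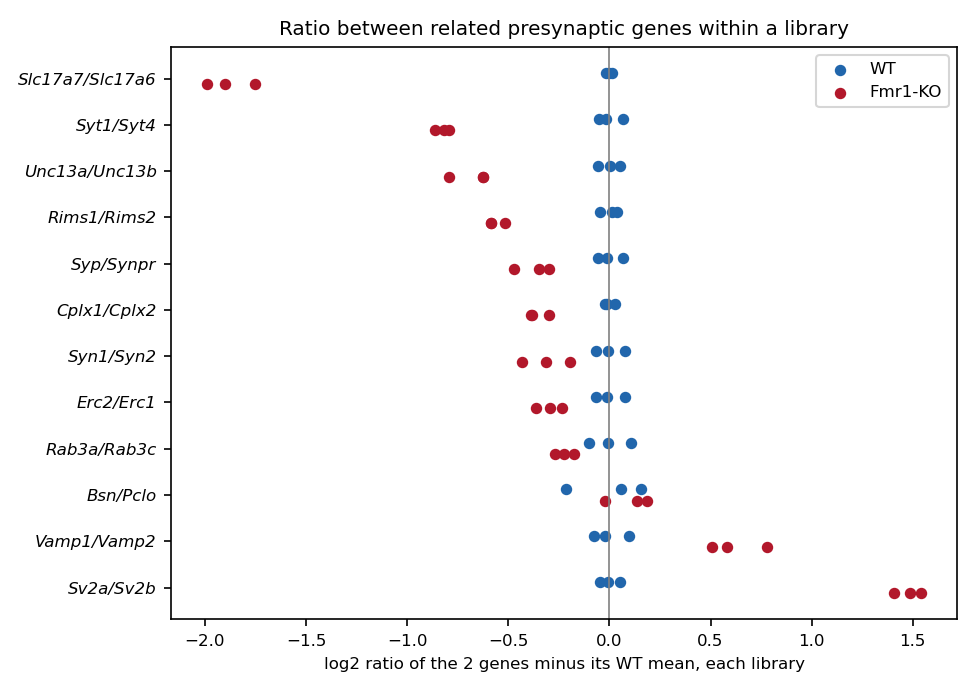
Log2 ratio of each pair of related genes within a library, minus the WT mean of the pair (horizontal axis), for the WT and Fmr1-KO libraries (points, n = 3 per genotype). Slc17a7/Slc17a6 lies furthest below 0 and Sv2a/Sv2b furthest above it, and Bsn/Pclo is the pair whose genotypes overlap.

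Per exon length, the composition of several families differed between genotypes by more than the SD of either. Exon length, here and elsewhere, counts every annotated exonic base of a gene over all its isoforms. Shares and levels compared between genes therefore depend on that annotation. Unc13b was 16.3% ± 0.489 of the Munc13 signal in WT and 23.8% ± 1.25 in Fmr1-KO. Rims1 went from 33.5% ± 1.93 to 26.6% ± 0.376 of the RIM signal, and Rab3b from 8.93% ± 0.269 to 5.59% ± 0.126 of the Rab3 signal. Among the synaptotagmins measured here, Syt1 went from 8.77% ± 0.164 to 5.78% ± 0.241 and Syt4 from 22.6% ± 0.958 to 26.3% ± 0.573. The leading member of each of these families was the same in both genotypes. These were Unc13a, Rims3, Rab3a and Syt11, at 82.6%, 39.8%, 78.6% and 46.3% of their families in WT and 75.4%, 42.1%, 79.7% and 47.6% in Fmr1-KO.

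Levels were compared between genes as CPM per kb of annotated exon. In WT the highest were Syt11 at 105, Vamp2 at 99.2, Rab3a at 83.0, Cplx2 at 53.2 and Syt4 at 51.3 CPM per kb, and the lowest were Syt2 at 0.473, Cplx3 at 0.352 and Unc13c at 0.174 CPM per kb. The order in Fmr1-KO was nearly the same (Spearman's rho between genotypes 0.986 across the 50 genes). The largest moves in rank were down the list, with Rab3b going from place 27 to 35 and Slc17a7 from 40 to 46. Across the 50 genes, the log2 fold change had a Spearman's rho of −0.0096 with the WT level per kb and 0.393 with the number of exonic bases. Genes are not independent replicates, the points share the same 6 libraries, and no test was made.

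**Figure D4:**
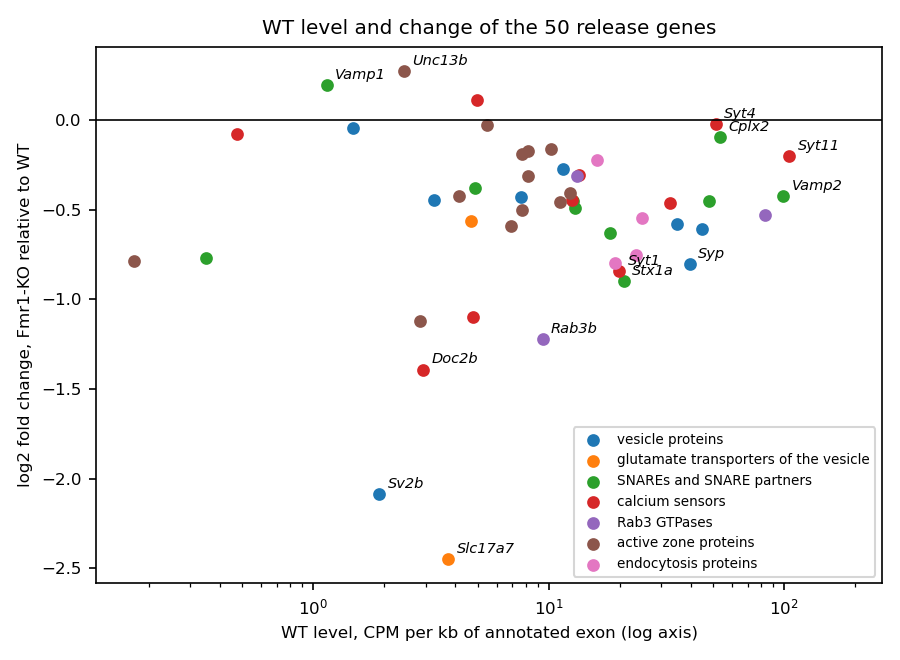
WT level of each release gene in CPM per kb of annotated exon (horizontal log axis) against its log2 fold change (vertical axis, Fmr1-KO relative to WT), coloured by role. Abundant genes lie both near 0 (Syt4, −0.02) and well below it (Syp, −0.80), and Sv2b and Slc17a7, the lowest points at −2.09 and −2.45, had modest WT levels of 1.91 and 3.75 CPM per kb.

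A wider list of 77 presynaptic genes that are not among the 50, of which 75 were tested, moved mostly down as well. Of the 75, 46 fell (61.3%), 6 rose and 23 did not pass, with a median log2 fold change of −0.15. The active zone genes of this list fell in 8 of 10 cases, and the SNAREs and their partners in 7 of 15. Sncb, beta-synuclein, a protein of presynaptic terminals, fell from 23.8 ± 1.10 to 10.6 ± 0.162 CPM (log2 fold change −1.17, SE 0.06, adjusted p = 5.24e-12). Rims4, a short RIM protein, fell from 45.0 ± 1.77 to 22.8 ± 2.09 CPM (log2 fold change −0.98, SE 0.06, adjusted p = 1.65e-11). In the other direction, Vamp3, a SNARE used in most cells, rose by 0.18 (SE 0.04, adjusted p = 0.000292), and Ston1, an endocytic adaptor, rose by 0.25 (SE 0.08, adjusted p = 0.0125).

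The study asked whether transcripts removed by nonsense-mediated mRNA decay (NMD) change in Fmr1-KO neurons. It drew a list of NMD targets from a mouse neuroblastoma line. In these cultured neurons it reported that the targets as a set were generally and significantly lower in Fmr1-KO. It also reported more phosphorylated UPF1, an NMD factor, and lower levels of chosen targets relative to their pre-mRNA by RT-qPCR. The list held 10 of the release genes: Dnm1, Ppfia2, Rab3c, Rimbp2, Rims2, Stxbp5, Sv2c, Syn2, Unc13a and Vamp2. Of these 10, 9 fell and none rose, with a median log2 fold change of −0.39. Of the other 40, 33 fell and 2 rose, with a median of −0.48. Of all genes tested, 21.9% were called lower and 20.7% higher. The whole list of NMD targets is not compared with other genes here, and the difference between these groups of release genes was not tested.

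Markers of cell types moved with genotype as well. Of 16 pan-neuronal genes, 13 fell and 2 rose (median log2 fold change −0.33), and their summed level was 6753 to 6911 CPM in WT and 5732 to 5993 CPM in Fmr1-KO. Of the 50 release genes, 33 had a log2 fold change below that median. A median divides its own list evenly, and the share of all genes tested below it was not counted. By call, 81.2% of the pan-neuronal genes were lower, beside 84.0% of the release genes and 21.9% of all genes tested. Of 12 genes of proliferating cells, all 12 rose (median 0.65), from 626.8 to 664.2 CPM summed in WT to 1063 to 1115 CPM in Fmr1-KO. Of 11 neural progenitor genes, 7 rose and 0 fell (median 0.22), from 2779 to 2790 CPM to 3178 to 3264 CPM. All of these neuronal and progenitor sums were separate between genotypes. GABAergic interneuron genes fell in 4 and rose in 5 of 10 cases (median 0.15), with a sum of 799.5 to 833.2 CPM in WT and 875.4 to 966.1 CPM in Fmr1-KO.

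Glial and vascular lists moved too. All 9 oligodendrocyte lineage genes fell (median −0.72, 1935 to 2104 CPM in WT and 1100 to 1186 CPM in Fmr1-KO), as did 8 of 9 microglial genes (median −0.61, 207 to 228.5 and 116.6 to 132.3 CPM). Of 8 astrocyte genes, 4 fell and 2 rose (median −0.05, 5090 to 5211 and 4488 to 4861 CPM). Of 8 endothelial and mural genes tested, of 9 listed, 3 fell and 4 rose (median 0.38, 274.1 to 299.7 and 428.3 to 449.1 CPM). Acta2, the most abundant of them, went from 176.1 CPM in WT to 322.0 CPM in Fmr1-KO. Kdr had the larger log2 fold change, from 7.27 to 17.06 CPM, whereas Rgs5 fell from 22.13 to 11.77 CPM. Cspg4, one of the genes that fell, was on both this list and the oligodendrocyte list. No marker of any list was at 0 in all libraries. The part of these cell types in the fall of the release genes was not tested.

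**Figure D5:**
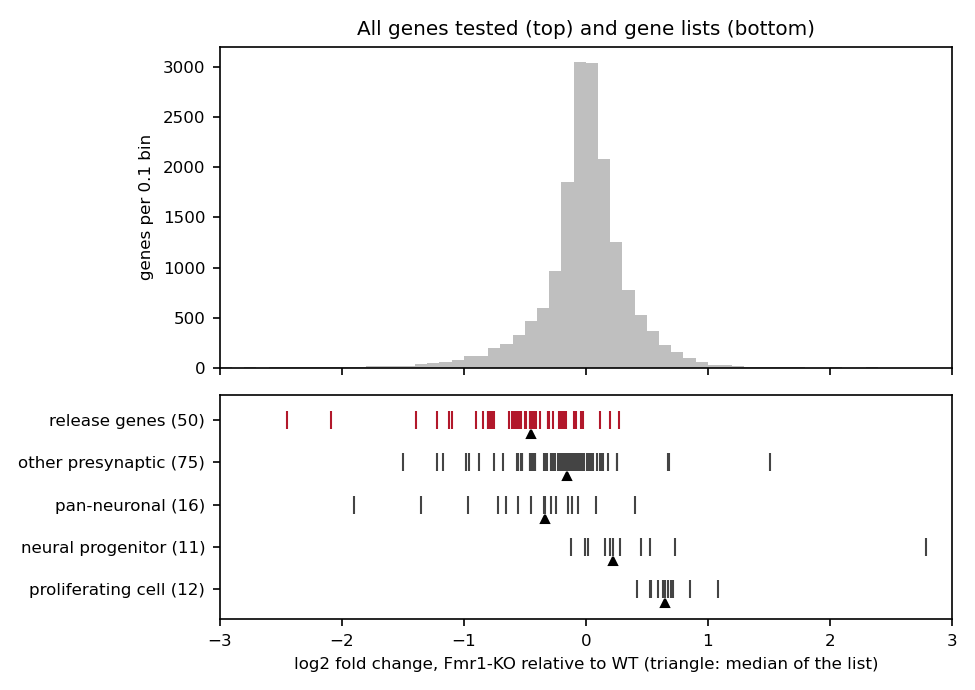
Log2 fold change (horizontal axis, Fmr1-KO relative to WT, shown from −3 to 3, which leaves out 15 genes tested) of all 16976 genes tested as a histogram (top, genes per bin) and of single genes of 5 lists as ticks (bottom, triangles at the medians). The medians are −0.45 for the release genes, −0.15 for other presynaptic genes, −0.33 for pan-neuronal genes, 0.22 for neural progenitor genes and 0.65 for genes of proliferating cells.

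Promoter windows of 300 bases, from 250 before to 50 after the start, were matched by symbol for 41 of the 50 release genes and for 12353 genes tested. Both strands were searched. The left arm of RE1 (TTCAGCACC) was present in 3 of the 41 (7.32%), those of Syn1, Unc13a and Ppfia3, and in 0.518% of the promoters of genes tested. The full cyclic AMP response element (TGACGTCA) was found in 1 (2.44%) against 3.34%, and its core TGACG, which every full element also contains, in 11 (26.8%) against 33.4%. GC boxes (GGGCGG) were found in 33 (80.5%) against 66.0%, the E-box CAGATG in 7 (17.1%) against 14.4%, and the TATA core TATAAA in 2 (4.88%) against 9.25%. The promoters with the TATA core were those of Sv2b and Rab3b. The promoters had a median GC content of 62.7%, against 60.7% for genes tested. The motifs were chosen after the fold changes were known, a match is a description of letters and not of binding, and no test was made.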

How the data were processed

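RNA was measured in 6 libraries of cultured cortical neurons, grouped as 3 WT and 3 Fmr1-KO by label, and the values the authors deposited are raw counts, 1 row for each gene name. By their methods, single-end reads from stranded poly(A) libraries were trimmed with FastP, aligned to GRCm38.p6 and counted over exons on the reverse strand with featureCounts; the submitters' processing notes name STAR 2.7.6a and Subread 2.0.1. Counts by name keep antisense neighbours apart but separate neither isoforms nor near-identical copies. Of the 55367 rows, 31650 had a count, 0 lacked a name and 0 columns were left unmapped.

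Counts were fitted in edgeR 4.0.16 (R 4.3.3) with filterByExpr, TMM, glmQLFit and glmQLFTest, 2-sided, genotype alone, on the whole table. The SE is the log2 fold change divided by the square root of F. The biological coefficient of variation was 3.22%, and replicates differed by more than sampling noise (chi-square per degree of freedom 2.88 in WT, 3.12 in Fmr1-KO). On simulated counts for this comparison, 79% of 100 genes changed 1.5-fold and 90% of 100 changed 2-fold were called, with 0.0656% of 16776 unchanged genes. A far smaller share of genes was changed in the simulation than was called in the data, so these rates need not hold there. Ratios of relatives used counts plus 0.5 and exact permutation (scipy 1.17.1). GENCODE M21 (GRCm38), which precedes the release the authors used and held 98.6% of tested names, gave coordinates and exonic bases; no release gene shared over 10% of its exonic bases with another gene on its strand. Promoters came from RefSeq.

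The members and lists were chosen with earlier results of these data known, and the motifs after the fold changes were seen. In each role, the called gene with the largest change in each direction and a mean of at least 10 CPM was given in full; of other lists, up to 2 called genes in each direction at that level could be named. DESeq2 1.42.0, other scalings, filters, a minimum fold change of 1.2, removal of the 20 most abundant genes, a replicate block and leaving out each library were alternatives.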

Additional observations from a re-analysis of the deposited data

How the results depend on the processing

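The count of 42 release genes lower in Fmr1-KO was 41 to 43 under DESeq2, RLE, upper-quartile and library-total scaling, both other filters, removal of the 20 most abundant genes, the replicate block and every left-out library, and 32 against a minimum fold change of 1.2, a stricter test by construction. The 2 higher genes became 1 with DESeq2, with no filter and with the replicate block, 0 against the minimum fold change, and 1 to 3 with a library left out; it was 1 without WT 2, WT 3, Fmr1-KO 2 or Fmr1-KO 3, since Vamp1 lost its call, and 3 without WT 1, where Syt9 gained one. Vamp1 had adjusted p = 0.128 with DESeq2, 0.0506 with no filter and 0.063 with the replicate block. Cplx3 passed the test with no filter (0.00983), with the abundant genes removed (0.0499), with the replicate block (0.0456) and without WT 2 (0.0347) or WT 3. The replicate block changed no other call among the 50. The median of the release genes was −0.42 with library totals and −0.48 to −0.45 with a library left out. Of the other presynaptic genes, 19 were lower against the minimum fold change and 42 to 43 with a library left out; 3 were higher with DESeq2, 1 against the minimum fold change and 3 to 6 with a library left out (3 without WT 1 or Fmr1-KO 1), and their median was −0.13 with library totals and −0.18 to −0.16 with a library left out. The paralog ratio Bsn/Pclo ran from −0.0046, without WT 2, to 0.18. The summed share of counts of the release genes differed by −0.117 percentage points (−0.121 to −0.114 with a library left out), and by −0.124 with the 20 most abundant genes removed. Genes near 0 changed sign: Syt4 with library totals (0.0089), and with a library left out, where it ran from −0.0573 to 0.0266 (above 0 without WT 2 and, at 0.0005, without Fmr1-KO 1), and Rims2, which ran from −0.0605 to 0.0327 (above 0 without WT 2). Of 747 values for single release genes, 717 held both direction and call, 20 lost a call, 6 gained one and 4 changed sign; the cause was not tested. Same-numbered libraries did not deviate together across genes (correlations −0.0289, 0.0323 and −0.0147). These values cannot show whether such libraries shared a litter or culture day, which the labels do not give. With 3 libraries a genotype, genes with few counts, such as Cplx3, Unc13c and Syt2, are the least precise.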
